A study of Homo sapiens with 34 samples.

Results

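The RNAs described here are long intergenic noncoding RNAs (lincRNAs) with a LINC symbol that were expressed while human embryonic stem cells (ESCs) were directed toward the cardiac lineage. A member had to be a RefSeq noncoding RNA record whose gene symbol begins with LINC and had to reach at least 1 CPM (its count scaled to the total count of the library) in 2 or more of 8 wild-type (WT) libraries. Of 550 LINC symbols in the table, 97 (17.6%) met this rule, among 23184 gene symbols in all, and 59 of the 550 had no count in any library. The members were chosen by their WT levels, so these are given as a description, without a test result. Just inside the threshold, LINC01106, LINC00899 and LINC00115 reached 1.02, 1.06 and 1.13 CPM in their second-highest WT library. Just outside it, LINC00910, LINC01686 and LINC01122 reached 0.989, 0.969 and 0.969 CPM.

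The cells were H1, an established human ESC line, infected with lentivirus carrying a short hairpin RNA (shRNA) against NKX2-5, ZEB2 or ZNF503, the 3 genes whose loss the study followed through cardiac differentiation. The control virus, whose cells are called WT, encoded a hairpin for GFP or no hairpin at all. All groups went through the same protocol, in which the GSK3 inhibitor CHIR99021 was followed by the WNT inhibitor IWP2 and later by insulin, and total RNA was taken at day 0 (undifferentiated), day 2, day 6 and day 10. Each of the 15 groups held 2 libraries (30 in all), day 10 of the ZNF503 line was not analysed here, and the day 10 libraries of the WT and ZEB2 shRNA lines are replicates 3 and 4. All other libraries, also those of NKX2-5 shRNA cells at day 10, are replicates 1 and 2. Whether differently numbered libraries were prepared apart is not given in the sources used here. Comparisons of day 10 that cross these numbers may therefore also hold such a difference. Each knockdown is 1 shRNA line, picked among several vectors, so the loss of the target and other effects of that hairpin or line cannot be told apart. The study calls its replicates biological, but whether they were separate cultures is not given in the sources used here, so the p-values below measure the spread between these libraries.

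Library totals ranged from 20674907 to 181886299 counts, of which the 97 RNAs together took 0.0333% to 0.0869%. The targets were low in WT cells at day 0, with means of 0.154 CPM of NKX2-5, 0.0575 of ZEB2 and 0.0515 of ZNF503. NKX2-5 shRNA, ZEB2 shRNA and ZNF503 shRNA cells held 0.0634, 0.0661 and 0.0663 CPM of their own target at that day. What part the targets had in the differences at day 0 was not tested. NKX2-5 measured 37.2 and 22.8 CPM in WT cells at day 6 and 0.479 and 0.364 CPM in NKX2-5 shRNA cells. ZEB2 measured 42.8 and 42.6 CPM in WT cells at day 6 and 26.2 and 27.5 CPM in ZEB2 shRNA cells, a smaller reduction. ZNF503 measured 3.85 and 4.22 CPM in WT cells at day 6 and 0.297 and 0.307 CPM in ZNF503 shRNA cells, whereas at day 2 these groups overlapped (0.599 and 1.09 against 0.508 and 0.931 CPM). The targets were not low only in their own lines. At day 6 mean ZEB2 was 9.86 CPM in NKX2-5 shRNA and 5.67 in ZNF503 shRNA cells. Mean NKX2-5 was 1.19 CPM in ZNF503 shRNA cells, and mean ZNF503 was 0.358 CPM in NKX2-5 shRNA cells. ZEB2 shRNA cells held means of 17.3 CPM of NKX2-5 and 6.0 of ZNF503. The 2 NKX2-5 shRNA libraries of day 10 stood apart from each other, with a chi-square per gene between their counts of 107 against 5.33 to 45.3 in the other groups, with 144 and 12.5 CPM of ALB, a liver gene, and 0.619 and 21.0 CPM of TNNT2, a cardiac gene.

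LincRNAs are transcripts of RNA polymerase II that are usually spliced and polyadenylated but carry no long open reading frame. Many are expressed at low levels and in few cell types, and a number of them start beside genes of developmental transcription factors. In ESCs some, such as LINC-ROR, have been linked to pluripotency, and others, such as LINC00261, to endoderm.

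On GRCh37, 89 of the 97 RNAs were placed in the GENCODE annotation, on 23 chromosomes. The canonical transcript had a median length of 1764 bp (160 to 9815 bp, 87 RNAs) and a median of 3 exons, and 12 had a single exon. A protein-coding gene overlapped 18 of them, and a further 57 had one within 100 kb. The counts are not free of other genes: 47 of the 89 shared exon bases with another annotated gene, 35 of them on the opposite strand, and 17 had a near-identical copy elsewhere (at least 500 bp at 95% identity or more), while 39 had neither. Since the sources used here do not say whether counting used the strand, reads of an RNA and of an overlapping gene cannot be told apart.

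Promoters are printed for 4 RNAs on which the results below turn. LINC00261 reached the highest group mean of any member in NKX2-5 shRNA and ZNF503 shRNA cells. LINC01356 and LINC01124 peaked at day 2, and LINC00881 appeared at day 10. Each promoter runs from 250 bases before to 50 bases after the RefSeq start on GRCh38.p14, a build other than that of the counts. Capitals mark the motif letters found on either strand. The motifs searched, on both strands, were TATAAA for the TATA box, GGGCGG for the box bound by SP factors (GC box), AGATAA for the GATA factors, TNAAGTG for NKX2-5, TGTTTAC for the FOX factors, TATTTTTA for MEF2, CTTTGAT for TCF/LEF and CAGGTG for the ZEB factors (E-box).
LINC00261 (chr20:22578593-22578892, minus strand): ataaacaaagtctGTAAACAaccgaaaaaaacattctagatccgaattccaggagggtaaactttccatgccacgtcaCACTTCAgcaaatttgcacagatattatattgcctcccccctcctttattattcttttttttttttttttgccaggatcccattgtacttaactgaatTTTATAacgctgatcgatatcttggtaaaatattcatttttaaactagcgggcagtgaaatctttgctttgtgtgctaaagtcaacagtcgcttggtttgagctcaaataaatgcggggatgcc
LINC01356 (chr1:112850594-112850893, minus strand): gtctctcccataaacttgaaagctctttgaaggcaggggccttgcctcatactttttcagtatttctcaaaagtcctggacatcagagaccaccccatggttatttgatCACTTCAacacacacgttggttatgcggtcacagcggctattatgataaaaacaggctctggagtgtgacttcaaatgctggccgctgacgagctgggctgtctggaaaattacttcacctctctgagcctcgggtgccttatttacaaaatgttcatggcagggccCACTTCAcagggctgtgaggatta
LINC01124 (chr2:170714518-170714817, minus strand): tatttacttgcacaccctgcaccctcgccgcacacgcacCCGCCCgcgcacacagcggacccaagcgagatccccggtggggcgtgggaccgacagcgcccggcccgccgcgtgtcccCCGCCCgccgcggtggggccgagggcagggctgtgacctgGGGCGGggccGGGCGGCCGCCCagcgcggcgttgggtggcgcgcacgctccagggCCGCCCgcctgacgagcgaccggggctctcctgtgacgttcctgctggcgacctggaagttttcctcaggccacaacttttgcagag
LINC00881 (chr3:157089631-157089930, plus strand): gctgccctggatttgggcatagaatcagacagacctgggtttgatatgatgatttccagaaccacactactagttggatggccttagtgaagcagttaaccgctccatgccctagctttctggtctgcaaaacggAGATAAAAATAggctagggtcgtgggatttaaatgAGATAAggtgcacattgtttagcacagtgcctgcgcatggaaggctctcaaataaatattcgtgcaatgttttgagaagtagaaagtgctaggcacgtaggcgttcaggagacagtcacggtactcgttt

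Counted from the start site, the LINC00261 promoter (GC content 37%, 8 CG dinucleotides) held the FOX letters at -237 to -231, the NKX2-5 letters at -172 to -166 and a TATA box at -74 to -69. The LINC01356 promoter held the NKX2-5 letters at -141 to -135 and 26 to 32. The LINC01124 promoter was rich in GC (74%, 38 CG dinucleotides) and held 6 GC boxes. The LINC00881 promoter held the GATA letters at -115 to -110 and -80 to -75, the former overlapping the MEF2 letters at -112 to -105. Over the 57 members with exactly 1 promoter in the table and 22114 promoters of all genes, the NKX2-5 letters stood in 6 (10.5%, against 10.5% of all), the GATA letters in 9 (15.8%, against 10.9% of all), the ZEB E-box in 16 (28.1%, against 20.8% of all), the GC box in 27 (47.4%, against 43% of all), the TATA box in 5 (8.77%, against 12.7% of all), the FOX letters in 3 (5.26%, against 3.5% of all), the MEF2 letters in 2 (3.51%, against 2.37% of all) and the TCF/LEF letters in 0 (0%, against 2.7% of all). A match describes letters in this window and is not a binding site.

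In WT cells, 53 of the 97 RNAs (54.6%) had their highest mean at day 10, 23 at day 2, 11 at day 6 and 10 at day 0. Of the 14852 genes that passed the same rule on level, 26.7% were highest at day 10, 27.7% at day 2, 14.9% at day 6 and 30.7% at day 0. Both libraries of the highest day lay above every other WT library for 39 RNAs at day 10, 15 at day 2, 8 at day 6 and 6 at day 0 (40.2%, 15.5%, 8.25% and 6.19%, against 19.3%, 18.8%, 9.26% and 25.1% of those genes). With CPM scaled by the trimmed mean of M-values (TMM), 59 were highest at day 10 and 17 at day 2. The highest WT day mean was over 10 times the lowest for 31 RNAs and under 2 times the lowest for 11, and 35 stood at 1 CPM or more in all 8 WT libraries.

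**Figure D1:**
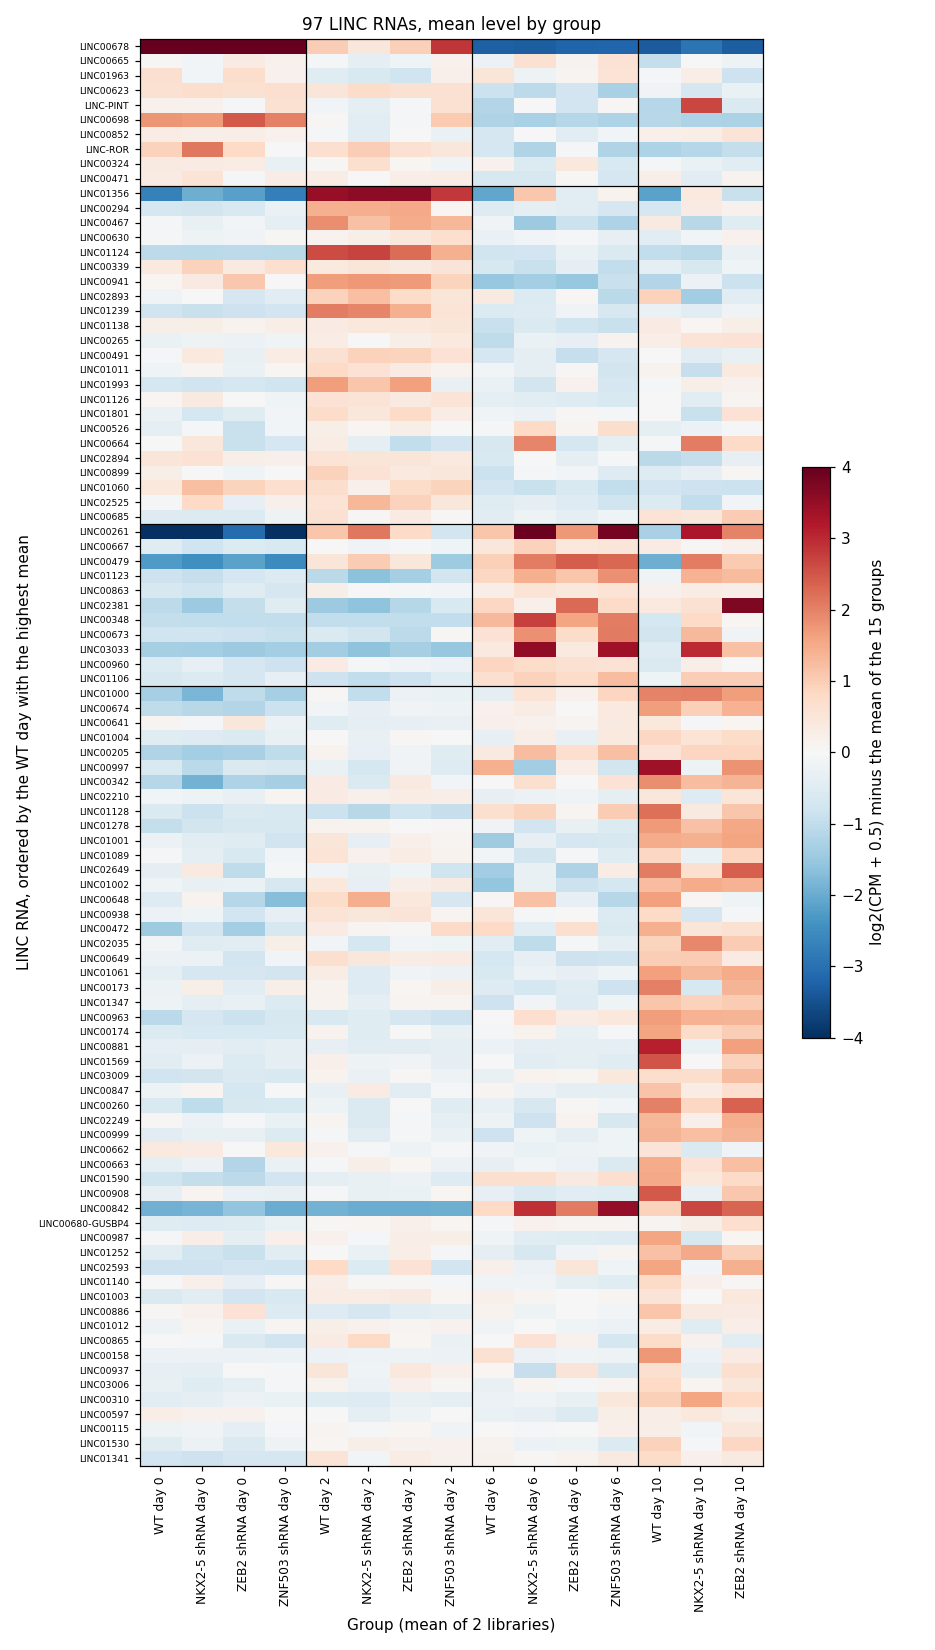
Mean level of each of the 97 LINC RNAs (vertical axis, ordered by the WT day with the highest mean) in each of the 15 groups of 2 libraries (horizontal axis, by day and line), as log2(CPM + 0.5) minus the mean of the 15 groups. Colors stop at -4 and 4, red is higher and blue lower; the lowest block, of RNAs highest at day 10 in WT cells, is the largest with 53 RNAs.

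Levels of different RNAs were compared per kb of the canonical transcript. By the mean over the 8 WT libraries the highest were LINC00674 (162 CPM per kb), LINC02210 (67.3), LINC01004 (45.8), LINC00678 (33.7), LINC00641 (19.5) and LINC01356 (18.1). The first 3 have annotated canonical transcripts of only 160, 288 and 538 bp, and reads were counted over the authors' gene regions, so their rank depends on that length. LINC00674 also shares 97.5% of its exon bases with another annotated noncoding RNA on the same strand, so the reads of these RNAs cannot be told apart. At day 0 LINC00678 was the highest per kb (123 CPM per kb), and at day 10 LINC00674 (364 CPM per kb).

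The share of the reads of all 97 that the leading RNA took, not corrected for length, differed by day and line. At day 0 the summed level was 346 to 366 CPM in the 4 lines (means of 2 libraries), and LINC00678 gave 25% to 30.9% of it. At day 2 it was 572 CPM in WT, 568 in NKX2-5 shRNA, 548 in ZEB2 shRNA and 460 in ZNF503 shRNA cells, and LINC01356 gave 17.5% to 24.8%. At day 6 it was 371 CPM in WT and 433 in ZEB2 shRNA cells but 769 in NKX2-5 shRNA and 739 in ZNF503 shRNA cells, where LINC00261 alone gave 39.1% and 38.1%, against 11.4% in WT and 15.3% in ZEB2 shRNA cells. At day 10 it was 660 CPM in WT, 683 in ZEB2 shRNA and 751 in NKX2-5 shRNA cells, led by LINC01000 in WT (9.07%) and by LINC00261 in the knockdown lines (11.4% and 24.8%). Without LINC00261, LINC00678 and LINC01356 the day 6 sums were 326, 359, 445 and 446 CPM in the same order. The sums were not tested.

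LINC00678 and LINC-ROR had their highest WT mean at day 0, in undifferentiated cells. LINC00678 (chromosome 11, 27639173 to 27656174, minus strand, 20266 bp from BDNF) measured 100.0 and 93.1 CPM in WT cells at day 0, 9.83 and 9.1 at day 2, 0.0192 and 0.0218 at day 6 and 0 in both libraries at day 10, so that no 2 days overlapped. In the shRNA lines, whose levels took no part in the choice of members, it fell from day 0 to day 2 by 4.17 ± 0.32 (log2 fold change ± SE, edgeR adjusted p = 0.000136) in NKX2-5 shRNA, by 3.4 ± 0.15 (6.25e-10) in ZEB2 shRNA and by 1.53 ± 0.11 (1.56e-07) in ZNF503 shRNA cells. In ZNF503 shRNA cells it stood at 36.8 and 34.5 CPM at day 2, above both WT libraries, a log2 difference from WT of 1.95 ± 0.13 (edgeR adjusted p = 5.14e-08). From day 2 to day 6 it became at least 480-fold lower in ZNF503 shRNA, 120-fold lower in NKX2-5 shRNA and 86.4-fold lower in ZEB2 shRNA cells, bounds that take 3 counts per library as the floor.

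LINC-ROR, an RNA that modulates reprogramming to pluripotency (chromosome 18, 54721789 to 54739350, minus strand), measured 1.77 and 1.75 CPM in WT cells at day 0, 1.55 and 1.19 at day 2, 0.249 and 0.196 at day 6 and 0 in both libraries at day 10. At day 0 it was higher in NKX2-5 shRNA (3.41 and 5.94 CPM, 1.46 ± 0.28, edgeR adjusted p = 0.00575) and lower in ZNF503 shRNA cells (0.7 and 0.711 CPM, -1.35 ± 0.3, 0.0224), but the first call was lost without WT replicate 1 or 2 (0.0527 and 0.0554), and the other whichever of the 4 libraries was left out (0.12 to 0.179) and in 1 fit of all libraries (0.114). From day 0 to day 2 its change passed in no shRNA line (-1.38 ± 0.57, 0.111, in NKX2-5 shRNA, -0.45 ± 0.34, 0.27, in ZEB2 shRNA and 0.64 ± 0.33, 0.159, in ZNF503 shRNA cells, where both day 2 libraries, 1.11 and 1.15 CPM, lay above those of day 0). At day 6 ZEB2 shRNA cells still held 0.751 and 0.497 CPM, while NKX2-5 shRNA (0.0355 and 0 CPM) and ZNF503 shRNA cells (0.0248 and 0 CPM) were at or under the floor of 3 counts, at least 11.7-fold and 8.4-fold lower. LINC00698 (chromosome 3, 62936105 to 63110738, plus strand) fell from day 0 to day 2 by 3.3 ± 0.34 in ZEB2 shRNA (2.11e-06), 3.1 ± 0.56 in NKX2-5 shRNA (0.00578, but 0.0612 without replicate 2 of day 2) and 1.14 ± 0.28 in ZNF503 shRNA cells (0.00594). Its day 2 level was 2.58 and 1.5 CPM in ZNF503 shRNA cells and 0.81 and 0.75 CPM in WT cells. LINC00698 entered the set only through WT levels of day 0, which favors a fall from that day in lines on the same protocol.

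LINC01356 and LINC01124 peaked at day 2. LINC01356 (chromosome 1, 113362792 to 113393265, minus strand, 7 exons, sharing exon bases with LINC01357 on the opposite strand) measured 1.18 and 1.34 CPM in WT cells at day 0, 122 and 131 at day 2, 0.824 and 3.52 at day 6 and 2.98 and 1.11 at day 10. It rose from day 0 to day 2 by 5.76 ± 0.27 in NKX2-5 shRNA (edgeR adjusted p = 2.41e-05), 5.88 ± 0.17 in ZEB2 shRNA (1.47e-11) and 6.07 ± 0.16 in ZNF503 shRNA cells (4.84e-12). Its peak was lower than WT in ZNF503 shRNA cells (83 and 78.4 CPM, -0.61 ± 0.08, 5.8e-05), although not in 1 fit of all libraries (0.281). After the peak all 3 lines stayed above WT: at day 6 it measured 24.1 and 23.2 CPM in NKX2-5 shRNA (3.28 ± 0.4, 2.47e-05), 11.1 and 12.8 in ZNF503 shRNA (2.3 ± 0.39, 0.000375) and 7.88 and 7.99 in ZEB2 shRNA cells (1.71 ± 0.39, 0.0133, but 0.0584 with DESeq2 and 0.0868 or 0.0768 without ZEB2 shRNA replicate 1 or 2). At day 10 NKX2-5 shRNA cells held 16.7 and 12.1 CPM (2.57 ± 0.48, 0.00542).

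LINC01124 (chromosome 2, 171568961 to 171571077, minus strand, 1 exon) starts 770 bp from SP5, a WNT-responsive transcription factor gene on the other strand. It measured 6.02 and 6.07 CPM in WT cells at day 2 and at most 0.115 CPM in any other WT library. From day 0 to day 2 it became at least 178-fold higher in NKX2-5 shRNA and, in ZNF503 shRNA cells, at least 69.3-fold higher (both lines had no count at day 0), and rose by 7.66 ± 0.64 in ZEB2 shRNA cells (edgeR adjusted p = 2.58e-07). The choice of this RNA through WT day 2 favors such rises in lines on the same protocol. At day 2 it measured 2.04 and 2.65 CPM in ZNF503 shRNA cells, below the other 6 libraries of that day, which is a description because WT levels of day 2 brought this RNA into the set. SP5 measured 28.4 and 33.9 CPM in those cells and 41.4 and 43.2 CPM in WT cells. LINC01993 (chromosome 17), also chosen through day 2, measured 1.9 and 2.76 CPM in WT, 0.137 and 0.31 in ZNF503 shRNA and 1.15 to 2.66 CPM in the other shRNA cells.

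LINC00294 (chromosome 11, 33097695 to 33101000, plus strand), which lies inside TCP11L1, also had its highest mean at day 2 in every line. It measured 5.04 and 5.71 CPM in WT cells at day 0 and 25.3 and 25.4 at day 2, and rose by 2.26 ± 0.23 in NKX2-5 shRNA (edgeR adjusted p = 0.000462) and 2.02 ± 0.15 in ZEB2 shRNA cells (5.96e-08). In ZNF503 shRNA cells it measured 7.68 and 7.48 CPM at day 0 and 8.05 and 11.4 at day 2, a difference of 0.32 ± 0.18 that did not pass (edgeR adjusted p = 0.199), and was lower than WT at day 2 (-1.37 ± 0.14, 5.34e-06). At that day the markers of mesendoderm summed to 502 to 623 CPM in ZNF503 shRNA and 1460 to 1520 in WT cells, with 5 of 5 lower, and 4 of 5 pluripotency markers were higher. Their part in the lincRNA differences was not tested, and in bulk RNA fewer cells of a type and less RNA per cell cannot be told apart.

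**Figure D2:**
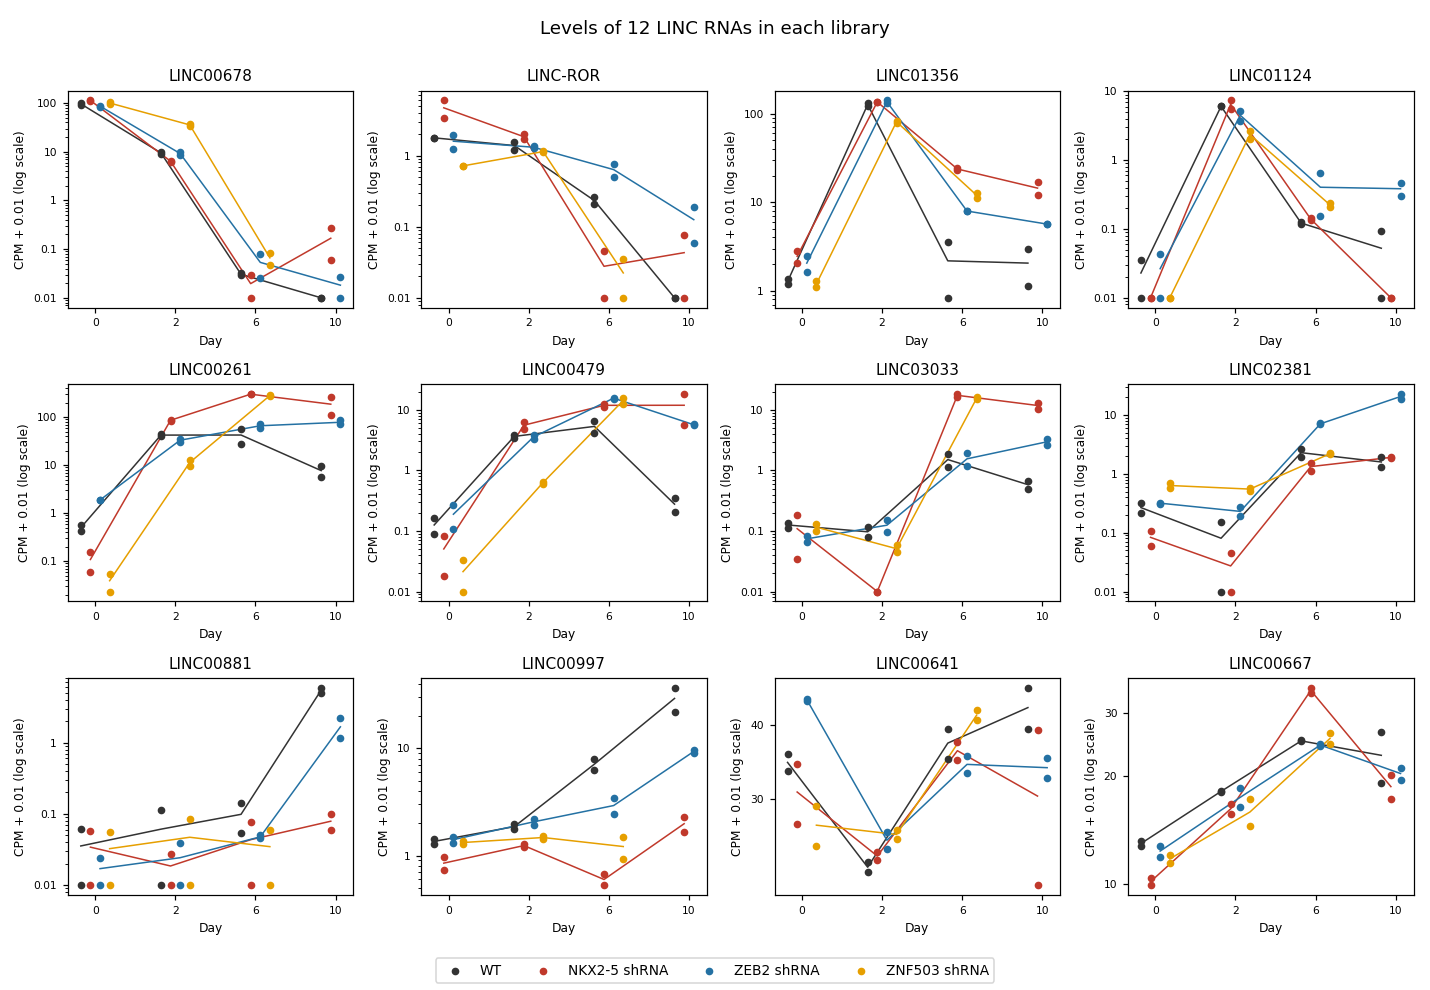
Levels of 12 LINC RNAs (CPM + 0.01, log scale) by day in WT, NKX2-5 shRNA, ZEB2 shRNA and ZNF503 shRNA cells, with no ZNF503 shRNA value at day 10. Points are single libraries, 2 per group, and lines join the group means; LINC00678 starts at 85.1 to 114 CPM and ends near 0, LINC01356 and LINC01124 peak at day 2, and at day 10 LINC00881 and LINC00997 are highest in WT cells, LINC02381 in ZEB2 shRNA and LINC00261 in NKX2-5 shRNA cells.

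Counted over the tested members, more rose than fell over the first interval, day 0 to day 2, whichever the shRNA line. In ZEB2 shRNA cells 44 of 97 rose and 8 fell (45.4% and 8.25%, against 24.7% and 32.2% of all genes tested). In NKX2-5 shRNA cells 22 of 95 rose and 5 fell (23.2% and 5.26%, against 14.4% and 14.0% of all genes tested), and in ZNF503 shRNA cells 26 of 94 rose and 5 fell (27.7% and 5.32%, against 14.9% and 16.8% of all genes tested). The median log2 change of the members was 0.58, 0.24 and 0.37 in these lines, and that of all genes -0.07, 0.01 and 0. The genes tested have every level, while each member had to be expressed in WT cells at some day. Of the 97 members, 9 qualify only with WT day 2 and 2 only with WT day 0, and none was set aside here. All lines followed the same protocol, so this choice favors higher levels at those days in the shRNA lines too. Its part in the counts was not tested.

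From day 2 to day 6 more members fell than rose, with shares near those of all genes tested. In NKX2-5 shRNA cells 21 of 95 rose and 28 fell (22.1% and 29.5%, against 23.7% and 24.2% of all genes tested), in ZEB2 shRNA cells 22 of 97 rose and 28 fell (22.7% and 28.9%, against 24.6% and 24.1% of all genes tested) and in ZNF503 shRNA cells 27 of 94 rose and 35 fell (28.7% and 37.2%, against 31.4% and 34.6% of all genes tested). For the next interval 16 members qualify only with WT day 10 and 5 only with WT day 6, and none was set aside. This choice favors higher levels at those days, and its part in the counts was not tested. From day 6 to day 10, in ZEB2 shRNA cells 43 of 97 rose and 12 fell (44.3% and 12.4%, against 32.3% and 31.0% of all genes tested), with a median of 0.47 against 0.03 for all genes. In NKX2-5 shRNA cells 24 of 95 rose and 14 fell (25.3% and 14.7%, against 24.1% and 25.1% of all genes tested), and the 38 changed RNAs became 15 or 16 without replicate 1 or 2 of day 6.

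LINC00261 gave the largest differences in amount of RNA between the lines. It lies at chromosome 20, 22528301 to 22559280, minus strand (4 exons, 4912 bp), 2356 bp from FOXA2, the gene of a pioneer transcription factor of endoderm on the same strand, and is itself known as a transcript of definitive endoderm. In WT cells it measured 0.57 and 0.409 CPM at day 0, 40.1 and 44.4 at day 2, 28.2 and 56.6 at day 6 and 9.74 and 5.66 at day 10. It rose from day 0 to day 2 by 9.62 ± 0.54 in NKX2-5 shRNA (edgeR adjusted p = 4.49e-05), 8.68 ± 0.29 in ZNF503 shRNA (3.95e-11) and 3.97 ± 0.15 in ZEB2 shRNA cells (1.39e-10), where it had started higher.

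At day 2 LINC00261 was above WT in NKX2-5 shRNA cells (88.7 and 83.4 CPM, 1.15 ± 0.13, edgeR adjusted p = 4.07e-05) and below WT in ZNF503 shRNA cells (9.77 and 13 CPM, -1.88 ± 0.14, 1.58e-07), and in ZEB2 shRNA cells it measured 35.7 and 30.4 CPM (-0.33 ± 0.13, 0.434). Between day 2 and day 6 it rose further in ZNF503 shRNA (4.74 ± 0.16, 3.35e-12), NKX2-5 shRNA (1.84 ± 0.35, 0.0037) and ZEB2 shRNA cells (1.12 ± 0.13, 7.5e-06). At day 6 it was far above WT in NKX2-5 shRNA (300.1 and 301 CPM, 2.72 ± 0.24, 1.59e-06) and ZNF503 shRNA cells (289 and 273 CPM, 2.62 ± 0.24, 2.51e-06), and these lines differed from each other by 0.09 ± 0.22 (0.813). ZEB2 shRNA cells held 59.6 and 72.6 CPM at day 6, above both WT libraries, but the difference of 0.54 ± 0.23 did not pass (0.162, and 0.000292 without WT replicate 2). NKX2-5 shRNA and ZNF503 shRNA cells exceeded ZEB2 shRNA cells at day 6 by 2.17 ± 0.23 (9.96e-06) and 2.08 ± 0.23 (1.72e-05).

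At day 10 LINC00261 measured 109 and 263 CPM in NKX2-5 shRNA and 70.6 and 85.7 in ZEB2 shRNA cells, and both groups lay above WT without overlap. The log2 differences from WT were 4.33 ± 0.46 (edgeR adjusted p = 0.000642) and 3 ± 0.43 (0.0056, but 0.0601 without WT replicate 4). FOXA2 differed from WT by 4.58 ± 0.43 in NKX2-5 shRNA (0.000448) and 2.91 ± 0.41 in ZEB2 shRNA cells (0.00557). At day 0, with WT cells near 0.5 CPM, LINC00261 was lower in NKX2-5 shRNA (0.0484 and 0.149 CPM, -2.16 ± 0.47, 0.0102) and ZNF503 shRNA cells (0.0452 and 0.0134 CPM, -4.22 ± 0.58, 0.00216) and higher in ZEB2 shRNA cells (1.88 and 1.87 CPM, 1.93 ± 0.36, 0.0126). None of these day 0 calls held throughout: that of NKX2-5 shRNA was lost without WT replicate 1 (0.0849) and in 1 fit of all libraries (0.0533), that of ZNF503 shRNA without its replicate 2 (0.0753), and that of ZEB2 shRNA whichever of the 4 libraries was left out (0.0751 to 0.151).

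Markers of endoderm and liver were, like LINC00261, far above WT in NKX2-5 shRNA and ZNF503 shRNA cells at day 6. Their sum did not follow it over time. From day 6 to day 10 mean LINC00261 fell from 42.4 to 7.7 CPM in WT and from 301 to 186 in NKX2-5 shRNA cells, while the marker sums rose. AFP, a liver gene, rose from 63.6 to 877 CPM in WT and from 344 to 12300 in NKX2-5 shRNA cells. The endoderm transcription factor genes FOXA2 and SOX17 instead fell, as LINC00261 did. FOXA2 went from 7.34 to 0.94 CPM in WT and from 41.7 to 26.1 in NKX2-5 shRNA cells. SOX17 went from 2.92 to 0.267 CPM in WT and from 16.7 to 1.82 in NKX2-5 shRNA cells. The markers summed to 143 to 298 CPM in WT cells at day 6, 1510 to 1540 in NKX2-5 shRNA (6 of 6 higher), 1140 to 1170 in ZNF503 shRNA (5 of 6 higher) and 145 to 205 in ZEB2 shRNA cells (1 of 6 higher). At day 10 they summed to 659 to 1490 CPM in WT, 14200 to 17800 in NKX2-5 shRNA (6 of 6 higher) and 3410 to 4150 in ZEB2 shRNA cells (4 of 6 higher). Cardiac markers summed at day 6 to 3520 to 4270 CPM in WT, 17.4 to 21.8 in NKX2-5 shRNA (6 of 6 lower), 71.2 to 97.9 in ZNF503 shRNA (6 of 6 lower) and 2040 to 2240 in ZEB2 shRNA cells (4 of 6 lower). At day 10 they summed to 5210 to 5880 CPM in WT, 24.2 to 163 in NKX2-5 shRNA (6 of 6 lower) and 1790 to 2700 in ZEB2 shRNA cells (2 of 6 lower). Blood markers summed to 404 to 530 CPM in NKX2-5 shRNA and 4.79 to 16.3 in WT cells at day 10 (5 of 5 higher). Their part in the differences of LINC00261 and of the RNAs below was not tested.

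LINC00479 and LINC00842 were higher than WT at day 6 in all 3 lines. LINC00479 (chromosome 21, 43131680 to 43135935, minus strand, 6 exons) measured 4.18 and 6.44 CPM in WT cells at day 6, 12.7 and 11 in NKX2-5 shRNA (1.04 ± 0.19, edgeR adjusted p = 0.000711), 15.3 and 15.8 in ZEB2 shRNA (1.44 ± 0.19, 0.000402) and 15.8 and 12.7 in ZNF503 shRNA cells (1.31 ± 0.19, 0.000129). At day 10 it measured 0.34 and 0.194 CPM in WT, 5.61 and 18.1 in NKX2-5 shRNA (5.11 ± 0.62, 0.00103) and 5.52 and 5.79 in ZEB2 shRNA cells (3.97 ± 0.6, 0.00669, but 0.0594 or 0.0694 without WT replicate 3 or 4). The knockdown libraries lay above both WT libraries at both days, while at day 2 the RNA was lower in ZNF503 shRNA cells (0.645 and 0.597 against 3.47 and 3.79 CPM, -2.48 ± 0.23, 1.82e-06).

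LINC00842 (chromosome 10, 47011753 to 47174018, minus strand) was nearly uncounted at first, with at most 0.177 CPM in any library of days 0 and 2. At day 6 it measured 2.05 and 3.9 CPM in WT, 15.4 and 13.7 in NKX2-5 shRNA (2.16 ± 0.25, edgeR adjusted p = 1.56e-05), 26.2 and 18.5 in ZNF503 shRNA (2.77 ± 0.25, 2.62e-06) and 7.54 and 8.27 in ZEB2 shRNA cells (1.28 ± 0.25, 0.00508). ZNF503 shRNA exceeded ZEB2 shRNA cells by 1.49 ± 0.24 (0.000284). It shares exon bases with ANXA8L1 on the same strand, so its reads and those of that gene cannot be told apart.

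LINC03033 set NKX2-5 shRNA and ZNF503 shRNA cells apart from ZEB2 shRNA cells. It lies at chromosome 14, 62037123 to 62125414, plus strand, shares 12.6% of its exon bases with an annotated protein-coding gene on the same strand and 5.9% with LINC01303 on the opposite strand, and has a near-identical copy elsewhere, so that its reads cannot be told apart from theirs. At day 6 it measured 18.2 and 16.6 CPM in NKX2-5 shRNA and 15 and 16.1 in ZNF503 shRNA cells, against 1.92 and 1.17 in ZEB2 shRNA and 1.15 and 1.85 in WT cells, whose levels at that day brought it into the set. NKX2-5 shRNA and ZNF503 shRNA cells exceeded ZEB2 shRNA cells by 3.39 ± 0.24 (edgeR adjusted p = 2.94e-07) and 3.23 ± 0.24 (6.3e-07) and differed from each other by 0.16 ± 0.21 (0.649). At day 10 it measured 0.659 and 0.484 CPM in WT, 13.2 and 10.4 in NKX2-5 shRNA (4.14 ± 0.38, 0.000417) and 2.65 and 3.27 in ZEB2 shRNA cells (2.01 ± 0.37, 0.012, a call lost whichever of the 4 libraries was left out). LINC00348 (chromosome 13, 71589174 to 71742549, plus strand) had at most 0.0259 CPM at days 0 and 2, and from day 2 to day 6 became at least 98.9-fold higher in NKX2-5 shRNA, 58.1-fold higher in ZEB2 shRNA and 50.9-fold higher in ZNF503 shRNA cells. It entered the set only through WT levels of day 6, which favors such a rise in lines on the same protocol.

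LINC00664 was high in NKX2-5 shRNA cells at the later days. It lies at chromosome 19, 21666176 to 21686040, plus strand and measured 6.94 and 5.84 CPM in those cells at day 6, above the other 6 libraries of that day, which held 0.533 to 1.14 CPM. The log2 difference was 3.21 ± 0.3 from WT (edgeR adjusted p = 2.86e-06), 3.4 ± 0.31 from ZEB2 shRNA (2.56e-06) and 2.88 ± 0.3 from ZNF503 shRNA cells (0.00013), and at day 10 2.37 ± 0.34 from WT (0.00192). It shares exon bases with the zinc finger gene ZNF429 on the same strand, which measured 15.8 and 15.3 CPM in NKX2-5 shRNA and 12.1 and 12.5 in WT cells at day 6. At day 2 it measured 2.22 and 1.16 CPM in WT cells and was lower in ZNF503 shRNA (0.468 and 0.597 CPM, -1.72 ± 0.39, 0.00455) and ZEB2 shRNA cells (0.43 and 0.339 CPM, -2.16 ± 0.41, 0.0266), but neither call held without WT replicate 1 (0.128 and 0.362), the first was also lost without ZNF503 shRNA replicate 1 (0.0703), and the other without ZEB2 shRNA replicate 1 or 2 (0.0761 and 0.138).

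LINC02381 (chromosome 12, 54519803 to 54541269, plus strand, 3 exons, overlapping SMUG1 on the opposite strand) was high in ZEB2 shRNA cells. It measured 6.94 and 7.21 CPM there at day 6, against 1.94 and 2.62 in WT cells (1.53 ± 0.23, edgeR adjusted p = 0.00108), and 18.6 and 22.6 at day 10, against 1.28 and 1.89 (3.42 ± 0.3, 0.00202). No library of the other lines exceeded 2.62 CPM at these days. NKX2-5 shRNA and ZNF503 shRNA cells differed from ZEB2 shRNA cells at day 6 by -2.45 ± 0.25 (5.76e-06) and -1.7 ± 0.24 (0.000115), and NKX2-5 shRNA cells at day 10 by -3.32 ± 0.29 (0.00147).

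Some RNAs that appeared in WT cells at day 10 were nearly uncounted in NKX2-5 shRNA cells. LINC00881 (chromosome 3, 156807423 to 156853346, plus strand, 4 exons), known as a heart-enriched lincRNA, had at most 0.134 CPM in WT cells up to day 6 and 5.87 and 5.03 at day 10. At day 10 it measured 2.18 and 1.14 CPM in ZEB2 shRNA and 0.0884 and 0.0498 in NKX2-5 shRNA cells, so that the 3 groups did not overlap. Its WT level of that day brought it into the set, so no test against WT is given. In ZEB2 shRNA cells it rose from day 6 to day 10 by 5.21 ± 0.73 (edgeR adjusted p = 2.91e-05). The choice favors such a rise in a line on the same protocol, so this value is no independent test. At day 10 NKX2-5 shRNA differed from ZEB2 shRNA cells by -4.39 ± 0.59 (0.00472), and what part the choice had in this was not tested.

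WT levels of day 10 brought 16 RNAs into the set, a choice that favors high WT values on that day. The means stood in the order WT, ZEB2 shRNA and NKX2-5 shRNA for 10 of them, and the libraries followed it without overlap for 6, LINC00881, LINC00158, LINC00908, LINC00987, LINC01569 and LINC03006. The share of all genes in this order was not counted, so these numbers describe these RNAs only. The WT mean was the highest for 12 of the 16; LINC00260 and LINC00685 were highest in ZEB2 shRNA and LINC00310 and LINC01252 in NKX2-5 shRNA cells. LINC00908 measured 3.28 and 3.92 CPM in WT, 1.41 and 0.75 in ZEB2 shRNA and 0 and 0.224 in NKX2-5 shRNA cells. LINC00158 measured 1.28 and 1.69 CPM in WT and 0.295 and 0.204 in ZEB2 shRNA cells, with 0 in both libraries of NKX2-5 shRNA. LINC01569, which lies 1863 bp from SRL, the gene of sarcalumenin of the muscle sarcoplasmic reticulum, measured 3.7 and 6.87 CPM in WT, 1.41 in both libraries in ZEB2 shRNA and 0.309 and 0.697 in NKX2-5 shRNA cells. For LINC02593 (chromosome 1) the libraries overlapped, since those of ZEB2 shRNA cells (1.92 and 1.86 CPM) lay between those of WT cells (1.32 and 2.95 CPM), above NKX2-5 shRNA cells (0.133 and 0.523 CPM).

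LINC00997 was lower than WT in every line at day 6 and did not depend on WT levels of the day for its choice. It lies at chromosome 7, 32799891 to 32802536, plus strand, with 1 exon that shares bases with the pseudogene DPY19L1P1 on the opposite strand. It measured 8.03 and 6.24 CPM in WT cells at day 6 and 21.8 and 36.9 at day 10. The NKX2-5 shRNA line held 0.657 and 0.518 CPM at day 6 (-3.73 ± 0.31, edgeR adjusted p = 9.38e-07) and 1.66 and 2.29 at day 10 (-4.08 ± 0.3, 0.000209), and ZNF503 shRNA cells 1.49 and 0.92 CPM at day 6 (-2.69 ± 0.29, 1.16e-05). ZEB2 shRNA cells lay between, with 3.43 and 2.42 CPM at day 6 (-1.36 ± 0.27, 0.0057, but 0.0708 without replicate 2) and 9.6 and 9.13 at day 10 (-1.94 ± 0.27, 0.00507, but 0.0569 or 0.0626 without replicate 3 or 4). NKX2-5 shRNA differed from ZEB2 shRNA cells by -2.37 ± 0.3 at day 6 (4.77e-05) and -2.14 ± 0.28 at day 10 (0.00426). LINC00173 (chromosome 12) was, at day 10, lower in the NKX2-5 line (0.486 and 0.796 against 5.45 and 7.93 CPM, -3.58 ± 0.37, 0.000604) and measured 4.41 and 3.79 CPM in ZEB2 shRNA cells (-1 ± 0.33, 0.0739), a difference that passed with DESeq2 (0.0257), with the replicate block (0.0307) and in 1 fit of all libraries (0.0162).

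Some members moved in opposite directions in different lines or days. LINC00648 (chromosome 14) was higher than WT in NKX2-5 shRNA cells at day 2 (10.4 and 8.46 against 6.04 and 4.98 CPM, 0.89 ± 0.19, edgeR adjusted p = 0.0037) and day 6 (8.09 and 7.06 against 3.16 and 3.27 CPM, 1.12 ± 0.2, 0.000514) and lower at day 10 (2.96 and 3.61 against 9.85 and 11.6 CPM, -1.9 ± 0.27, 0.00193). In ZNF503 shRNA cells it was lower at day 0 (0.542 and 0.684 against 2.02 and 2.08 CPM, -1.75 ± 0.24, 0.00211), day 2 (1.46 and 2.05 CPM, -1.68 ± 0.21, 3.36e-05) and day 6 (1.14 and 1.17 CPM, -1.58 ± 0.22, 9.02e-05), and at day 6 NKX2-5 shRNA exceeded ZNF503 shRNA cells by 2.7 ± 0.22 (3.72e-05). LINC02649 (chromosome 10) was higher than WT (0.613 and 0.74 CPM) at day 6 in NKX2-5 shRNA (1.95 and 2.04 CPM, 1.44 ± 0.27, 0.000799) and ZNF503 shRNA cells (3.72 and 2.93 CPM, 2.17 ± 0.27, 3.56e-05) and, at day 10, lower in the NKX2-5 line (3.96 and 4.75 against 9.7 and 14.7 CPM, -1.67 ± 0.27, 0.00312). LINC00472 (chromosome 6) was lower than WT (7.24 and 5.76 CPM) at day 6 in NKX2-5 shRNA (2.43 and 2.51 CPM, -1.5 ± 0.2, 5.54e-05) and ZNF503 shRNA cells (2.21 and 2.19 CPM, -1.67 ± 0.21, 3.26e-05), and shares exon bases with OGFRL1 on the opposite strand.

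LINC-PINT, a p53-induced RNA that works with a Polycomb complex, was higher than WT (0.977 and 1.67 CPM) at day 6 in NKX2-5 shRNA (3.81 and 3.38 CPM, 1.31 ± 0.28, edgeR adjusted p = 0.00208, but 0.0616 in 1 fit of all libraries) and ZNF503 shRNA cells (3.99 and 3.45 CPM, 1.36 ± 0.29, 0.00163). At day 10 its NKX2-5 shRNA libraries measured 46.1 and 4.98 CPM against 1.21 and 1.5 in WT cells (4.14 ± 0.98, 0.0129), so that 1 library set the size of the difference, and the call was lost without WT replicate 3 or 4 (0.109 and 0.0922). LINC00467 was lower than WT (2.61 and 1.92 CPM) at day 6 in NKX2-5 shRNA (0.426 and 0.834 CPM, -1.9 ± 0.37, 0.00101) and ZNF503 shRNA cells (0.991 and 0.613 CPM, -1.61 ± 0.38, 0.00335). LINC00665, which has a near-identical copy, was higher than WT (15.3 and 11.4 CPM) at day 6 in NKX2-5 shRNA (24.9 and 24.3 CPM, 0.77 ± 0.16, 0.00184) and ZNF503 shRNA cells (26 and 21.1 CPM, 0.71 ± 0.16, 0.00305).

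Members that differed from WT were counted only among those that qualify without the WT libraries of the same day, and the lines of a day share those WT libraries. In NKX2-5 shRNA cells 7 of 89 were higher and 4 lower (7.87% and 4.49%, against 8.23% and 7.64% of all genes tested) at day 0, 5 of 83 were higher and 10 lower (6.02% and 12%, against 13.1% and 13.6% of all genes tested) at day 2 and 24 of 87 were higher and 16 lower (27.6% and 18.4%, against 24.5% and 24.7% of all genes tested) at day 6. At day 10, 12 of 77 were higher and 22 lower (15.6% and 28.6%, against 23.3% and 20.6% of all genes tested), with a median log2 difference of -0.48 against 0.03 for all genes, and the 34 calls became 19 or 16 without WT replicate 3 or 4 and 32 or 38 without NKX2-5 shRNA replicate 1 or 2, libraries that stood apart from each other. In ZNF503 shRNA cells 1 of 89 were higher and 6 lower (1.12% and 6.74%, against 3.99% and 3.51% of all genes tested) at day 0, 7 of 83 were higher and 14 lower (8.43% and 16.9%, against 13.1% and 13.7% of all genes tested) at day 2 and 22 of 87 were higher and 15 lower (25.3% and 17.2%, against 27.2% and 28.5% of all genes tested) at day 6. In ZEB2 shRNA cells 2 of 89 were higher and 2 lower (2.25% and 2.25%, against 2.48% and 1.46% of all genes tested) at day 0, 0 of 83 were higher and 1 lower (0% and 1.2%, against 0.206% and 0.285% of all genes tested) at day 2, 5 of 87 were higher and 4 lower (5.75% and 4.6%, against 5.68% and 5.33% of all genes tested) at day 6 and 4 of 77 were higher and 5 lower (5.19% and 6.49%, against 10.5% and 7.68% of all genes tested) at day 10. The 0 higher by edgeR in ZEB2 shRNA cells at day 2 stood beside 6 members with an unadjusted p under 0.05 in either direction.

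**Figure D3:**
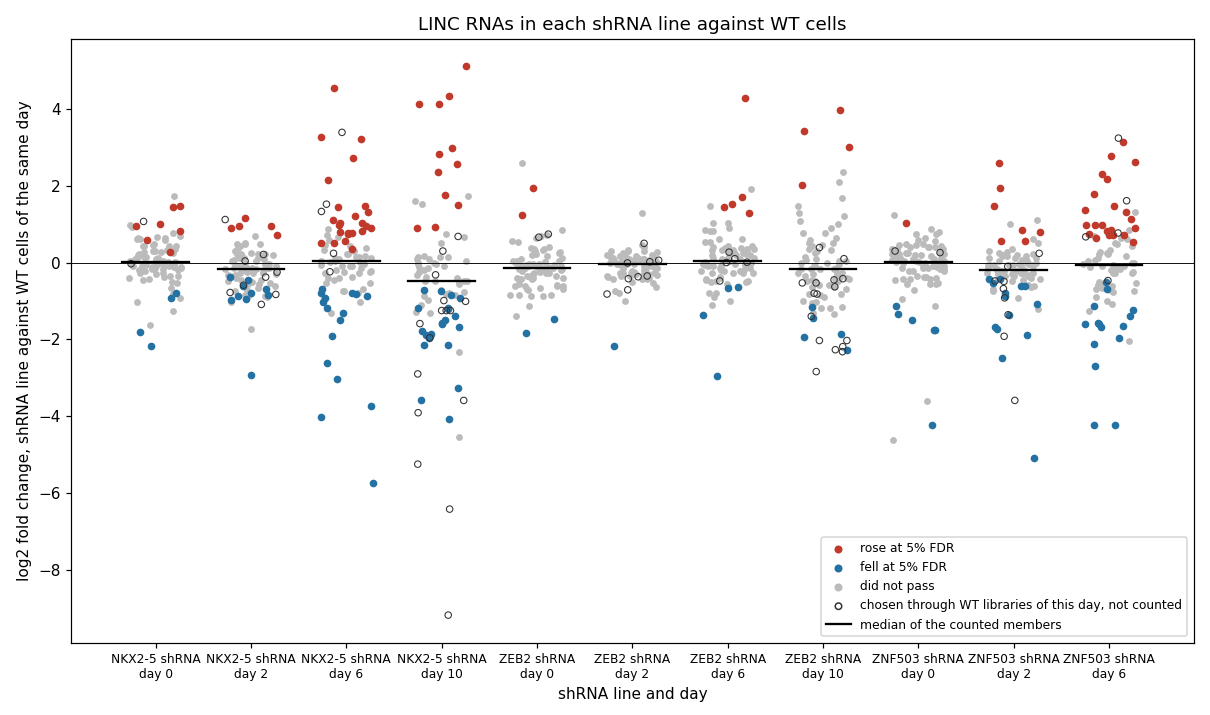
Log2 difference from WT of the same day (vertical axis, edgeR) of each tested LINC RNA in each shRNA line and day (horizontal axis), 1 point per RNA. Red and blue points were higher and lower at 5% FDR, gray points did not pass, open circles were chosen through WT libraries of that day and not counted, and the black bar is the median of the counted members; NKX2-5 shRNA and ZNF503 shRNA cells have 40 and 37 calls at day 6, and ZEB2 shRNA cells 1 at day 2.

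Between the knockdown lines at day 6, NKX2-5 shRNA against ZNF503 shRNA gave 4 of 92 higher and 3 lower (4.35% and 3.26%, against 5.91% and 8.8% of all genes tested). NKX2-5 shRNA against ZEB2 shRNA gave 17 of 92 higher and 15 lower (18.5% and 16.3%, against 21.3% and 23.1% of all genes tested), and ZNF503 shRNA against ZEB2 shRNA gave 16 of 92 higher and 16 lower (17.4% and 17.4%, against 23.7% and 25.6% of all genes tested). No member was set aside between lines, neither the 5 that qualify only with WT day 6 nor the 16 only with WT day 10. For 10 of these 16 the day 10 means stood in the order WT, ZEB2 shRNA and NKX2-5 shRNA. Their part in the counts was not tested. At day 10 NKX2-5 shRNA against ZEB2 shRNA gave 4 of 93 higher and 14 lower (4.3% and 15.1%, against 10.5% and 10.8% of all genes tested), and the 18 calls became 36 without NKX2-5 shRNA replicate 2 and 3 or 5 without ZEB2 shRNA replicate 3 or 4.

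Several members followed the level of a neighboring protein-coding gene. Over the 30 libraries, which share lines and days, Pearson's r of log2(CPM + 0.5) had a median of 0.28 (quartiles -0.12 and 0.68) for 75 pairs within 100 kb, and 7 pairs exceeded 0.8. The 5544 pairs of a member with another member's neighbor had a median of 0.06 (quartiles -0.27 and 0.36), and 72 exceeded 0.8. Pairs with start sites within 10 kb (13) had a median of 0.51, and 4 of them exceeded 0.8. The highest were LINC00294 with TCP11L1 (0.97), LINC01124 with SP5 (0.97), LINC00261 with FOXA2 (0.93), LINC00941 with CAPRIN2 (0.93), LINC00842 with NPY4R (0.91), LINC00205 with POFUT2 (0.9) and LINC02894 with ESRP1 (0.87).

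TCP11L1, which holds LINC00294 on the same strand, differed from WT at day 2 in ZNF503 shRNA cells by -1.38 ± 0.1, beside -1.37 ± 0.14 for LINC00294. LINC00205 (chromosome 21, 46707950 to 46717721, plus strand) starts 137 bp from POFUT2, the gene of a protein O-fucosyltransferase on the other strand. At day 6 LINC00205 was higher than WT (29.1 and 32.9 CPM) in NKX2-5 shRNA (59.9 and 53.4 CPM, 0.76 ± 0.14, edgeR adjusted p = 0.000814) and ZNF503 shRNA cells (65.4 and 46.3 CPM, 0.74 ± 0.14, 0.000972), as was POFUT2 (1.07 ± 0.14, 4.43e-05, and 1.38 ± 0.14, 6e-06). Other pairs did not move together, with r of 0.02 for LINC00881 and CCNL1, 0.02 for LINC02381 and SMUG1 and -0.04 for LINC01356 and SLC16A1. LINC00674 and KPNA2, a nuclear import gene, had an r of -0.92: from day 0 to day 10 in WT cells LINC00674 went from 8.36 and 8.84 CPM to 50.4 and 66.2, and KPNA2 from 287 and 278 to 35.5 and 38.3. As given above, reads of LINC00674 cannot be told apart from those of an overlapping noncoding RNA.

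**Figure D4:**
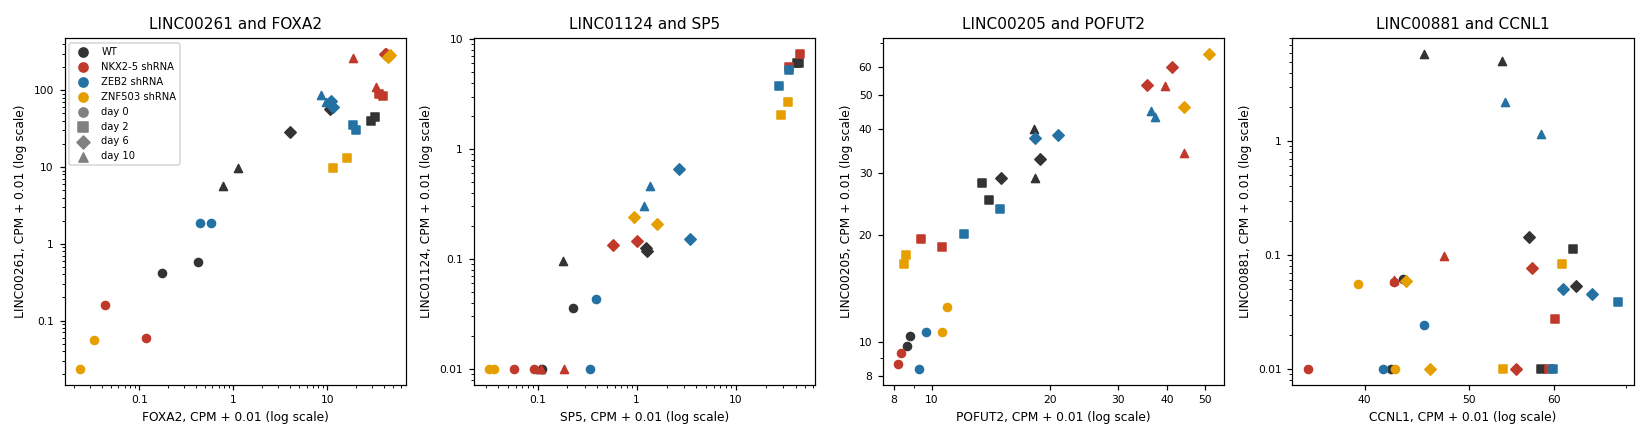
Level of 4 LINC RNAs (vertical axes) against that of the neighboring protein-coding gene (horizontal axes), both as CPM + 0.01 on log scales, in 30 libraries, with color for the line and shape for the day. LINC00261 with FOXA2, LINC01124 with SP5 and LINC00205 with POFUT2 rise together (r of 0.93, 0.97 and 0.9), while LINC00881 and CCNL1 do not (0.02).

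LINC00641 and LINC00667 each passed in 1 of their comparisons with WT. LINC00641 (chromosome 14) ranged from 21.5 to 46.1 CPM over all 30 libraries, and of its 11 comparisons with WT only that of NKX2-5 shRNA cells at day 10 passed (21.5 and 39.2 against 39.3 and 46.1 CPM, -0.71 ± 0.24, edgeR adjusted p = 0.0488). LINC00667 (chromosome 18) ranged from 9.89 to 35.3 CPM, and of its 11 only that of NKX2-5 shRNA cells at day 6 passed (35.3 and 34.1 against 25 and 25.2 CPM, 0.36 ± 0.11, 0.0196). LINC01000 measured 11.2 and 12 CPM in WT cells at day 6 and 37.8 and 81.9 at day 10, and rose between these days by 1.4 ± 0.18 in NKX2-5 shRNA (0.000692) and 1.37 ± 0.14 in ZEB2 shRNA cells (1.97e-06). LINC02035 and LINC01252 rose over the same days in NKX2-5 shRNA cells, the first from 2.17 and 1.68 to 19.6 and 16.9 CPM (3.17 ± 0.27, 0.000174) and the other from 0.177 and 0.384 to 4.38 and 1.57 CPM (3.3 ± 0.74, 0.00787, but 0.0612 without replicate 1 of day 6). LINC01252 had entered the set only through WT levels of day 10, which favors such a rise. LINC00886 fell in ZEB2 shRNA cells between day 0 (1.01 and 1.13 CPM) and day 2 (0.287 and 0.286 CPM, -2.06 ± 0.41, 0.00075). LINC02525 was higher than WT (0.596 and 0.511 CPM) at day 0 in NKX2-5 shRNA cells (1.06 and 1.82 CPM, 1.44 ± 0.31, 0.0107), a call lost without NKX2-5 shRNA replicate 2 (0.0783) and without either WT library (0.0648 and 0.0951).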

How the data were processed

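Total RNA of H1 cells was sequenced from stranded TruSeq libraries. The authors aligned reads to hg19 with TopHat2 2.0.14, with Bowtie2 2.2.1.0 and SAMtools 0.1.19.0 per the labels, and deposited raw counts per RefSeq transcript record counted with RSeQC; whether counting used the strand is not given in the sources used here. Of 41627 records, 40281 matched a gene symbol (96.8%), the others held 2.9% of the counts, and the record with the largest total stood for each symbol. The 4 columns for day 10, replicates 1 and 2, of the WT and ZEB2 shRNA lines hold 1077 more values than there are records and do not follow their order (Spearman correlation with replicate 3 of 0.0079 to 0.0131, median over blocks of records), so they were not used.

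Levels are CPM of the library total over all records. Differences come from edgeR 4.0.16 (R 4.3.3, limma 3.58.1) quasi-likelihood tests of the 2 groups compared, with TMM, filterByExpr and Benjamini-Hochberg adjustment over all symbols tested at 5% FDR. All groups of the day, or of the line for changes over time, were in 1 fit, so other groups also set the error of a test. The tests were tried first on simulated data, and the SE is the absolute log2 fold change over the square root of F. DESeq2 1.42.0 was an alternative. With 30 libraries of 20674907 to 181886299 counts, floors of 3 counts cover counting error only. Tests of knockdown against WT are reported only for RNAs that meet the level rule without WT libraries of that day. The fits covered all symbols, and the choice of named RNAs also used results of the members left out. Changes between WT days are not reported as tests. Named genes were those with the largest changes past the study's thresholds in each comparison without overlap of libraries (up to 3 in each direction), the 10 highest per length, RNAs of known background, those at the threshold, and neighboring genes; LINC00173, LINC00205, LINC00294, LINC01000, LINC01569 and LINC02894 fall outside this rule and were chosen after their values were seen. The members and lists were chosen with earlier results of these data known.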

Additional observations from a re-analysis of the deposited data

Results flagged for a closer look

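The effect of a knockdown differed between lines by a test of the difference itself for several RNAs. At day 6 LINC00664 differed between NKX2-5 shRNA and ZEB2 shRNA cells by 3.4 ± 0.31 on the log2 scale (edgeR adjusted p = 2.56e-06), and LINC03033 by 3.39 ± 0.24 (2.94e-07) between the same lines and by 3.23 ± 0.24 (6.3e-07) between ZNF503 shRNA and ZEB2 shRNA cells. LINC00937, which has a near-identical copy, measured 0.16 and 0.125 CPM in NKX2-5 shRNA and 1.57 and 0.923 in ZEB2 shRNA cells at day 6, a difference of -3.21 ± 0.45 (edgeR adjusted p = 0.0001), with 0.939 and 0.664 CPM in WT cells, which overlapped the ZEB2 shRNA libraries. At day 10 the same lines differed by -4.39 ± 0.59 for LINC00881 (edgeR adjusted p = 0.00472) and by -3.32 ± 0.29 for LINC02381 (0.00147). The libraries of the lines did not overlap in any of these cases, but the choice of named RNAs had required this. LINC03033 and LINC00881 had also entered the set through WT levels of the day compared.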

How the results depend on the processing

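For named RNAs, 1475 alternative values kept their direction and side of the threshold, 73 lost the call, 5 gained one and 0 changed sign; the cause was not tested. Counts of changed members moved by over 1.5 times in these cases. With no filter on low counts, ZEB2 shRNA against WT gave 9 at day 0 in place of 4 and 14 at day 6 in place of 9, ZNF503 shRNA against WT 13 at day 0 in place of 7, and NKX2-5 against ZNF503 shRNA at day 6 12 in place of 7. In 1 fit of all libraries, NKX2-5 shRNA against WT gave 7 at day 0 and 6 at day 2 in place of 11 and 15, ZNF503 shRNA 4 and 12 in place of 7 and 21, ZEB2 shRNA at day 10 35 in place of 9, NKX2-5 shRNA from day 0 to day 2 48 in place of 27 and NKX2-5 against ZEB2 shRNA at day 10 39 in place of 18. With DESeq2, ZEB2 shRNA gave 8 at day 0 and 18 at day 10, and ZNF503 shRNA 11 at day 0. At 2 CPM in place of 1 CPM, 61 RNAs met the rule.

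Leaving out 1 library at a time, with a lone library assumed to vary like the other group, gave for NKX2-5 shRNA against WT 0 to 11 changed members at day 0, 8 to 13 at day 2, 30 to 33 at day 6 and 16 to 38 at day 10, for ZEB2 shRNA 1 to 2, 0 to 1, 4 to 7 and 3 to 5, and for ZNF503 shRNA 1 to 2, 13 to 15 and 24 to 31 at days 0, 2 and 6. Over time it gave 11 to 18, 31 to 32 and 15 to 45 in NKX2-5 shRNA, 45 to 50, 39 to 47 and 45 to 52 in ZEB2 shRNA and 18 to 23 and 55 to 61 in ZNF503 shRNA cells. Between lines it gave 3 to 9 for NKX2-5 against ZNF503 shRNA, 22 to 29 for NKX2-5 against ZEB2 shRNA and 23 to 32 for ZNF503 against ZEB2 shRNA at day 6, and 3 to 36 for NKX2-5 against ZEB2 shRNA at day 10. Counts that fell most were NKX2-5 shRNA at day 0 without WT replicate 1 (0), WT replicate 2 (1) or its own replicate 2 (5), at day 2 without WT replicate 2 (8) or its own replicate 1 (8), ZNF503 shRNA at day 6 without WT replicate 1 (24), and ZEB2 shRNA at days 0 and 10 and ZNF503 shRNA at day 0 whichever library was left out.

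Samples of the same replicate number had correlations of their deviations from the group means of -0.128 to 0.12, so that the number did not pair them. With the replicate number as a block, ZEB2 shRNA against WT at day 10 gave 24 changed members in place of 9, and no other count moved by over 1.5 times. Crossing the numbers of days 0 and 2 in ZEB2 shRNA cells, an alternative chosen after seeing the data, gave 56 in place of 52.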
